A study of Mus musculus with 3 samples.

Results

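Antigen processing and presentation genes were followed across 3 microarrays of mouse tail-tip fibroblasts undergoing reprogramming. The 34 members were given by name as the genes of the class I and class II presentation pathways with their proteasome subunits, and each was represented by its brightest probe, out of 20825 named genes measured on all 3 arrays. The groups were old p16-/- cells (donors aged 22 months that lack the cyclin-dependent kinase inhibitor p16), old WT cells (wild-type donors aged 22 months) and young WT cells (wild-type donors aged 2 months), with 1 array each. All 3 received the 4 reprogramming factors (c-Myc, Klf4, Sox2 and Oct4) and were collected on day 8, so the factors are common to every group and no cells without them were analysed here. The study sets old against young cells to ask how donor age bears on reprogramming intermediates, and old p16-/- against old WT cells to ask how p16 loss does. The study design mentions a pair of independent experiments with different donors, of which 1 array per group was analysed here, and whether an array holds 1 animal or a pool is not stated in the sources at hand. With 1 array per group no difference has a replicate check, no test was run, and differences are described by size.

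Class I molecules display peptides from inside the cell to CD8 T cells and are made by nearly all nucleated cells. The proteasome cuts proteins into peptides, the Tap transporter carries these into the endoplasmic reticulum, and chaperones load them onto a heavy chain paired with the light chain B2m. Interferon replaces the catalytic subunits of the constitutive proteasome with those of the immunoproteasome, and the transactivator Nlrc5 drives class I transcription. Class II molecules display peptides from endosomes to CD4 T cells. They are constitutive in dendritic cells, macrophages and B cells, and in fibroblasts they are known to be inducible by interferon gamma through the transactivator Ciita.

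Signals are Agilent processed signals, a linear brightness in arbitrary units after background subtraction, and levels are log2 signals minus the 75th percentile of the array. That percentile was 2243 on old p16-/-, 2255 on old WT and 2338 on young WT. Well above background is the scanner software's own call, made for 58.4% of spots on old p16-/-, 61.6% on old WT and 57.4% on young WT. The transcripts of Cdkn2a, the gene that encodes p16 together with Arf, had signals of 28065 on old p16-/-, 65464 on old WT and 62705 on young WT, but whether the probe lies in the deleted part is not known, so these values check nothing. Fibroblast markers were well above background on every array (10 of 10), with summed signals of 717997 on old p16-/-, 793327 on old WT and 804620 on young WT. Of these 10, 3 differed by 2-fold or more between old p16-/- and old WT, with Pdgfra (log2 ratio 1.61) and Fap (1.51) higher and the surface marker Thy1 (-3.98) lower on old p16-/-. Over all genes, 5.97% were higher and 6.51% lower by that measure. The Y-linked gene Ddx3y was at background on both old arrays and had a signal of 3949 on young WT, whereas Xist, which coats the inactive X chromosome, had 1387 on old p16-/- and 1548 on old WT and was at background on young WT. Donor age and sex-linked expression therefore cannot be told apart in comparisons with young WT.

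Of the 34 members, 31 were well above background on all 3 arrays. Cd74 was so on old WT alone, and the class II chain H2-Aa and the transactivator Ciita on none. Signals were at least 1000 on every array for 20 members, and 11 of those detected on all arrays were dimmer on at least 1. Probes spotted 10 times gave the measurement noise. At a median signal of at least 1000, 0 of 1720 spots on old p16-/-, 0 of 1700 on old WT and 0 of 1750 on young WT lay 2-fold or more from their probe's median. Between 300 and 1000, 1 of 380 spots on old p16-/-, 0 of 410 on old WT and 4 of 400 on young WT did so. Between 100 and 300, 2 of 270 spots on old p16-/-, 6 of 350 on old WT and 4 of 340 on young WT did so. A member read from a single dim spot can therefore be off by 2-fold on occasion, and its array cannot show when.

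**Figure D1:**
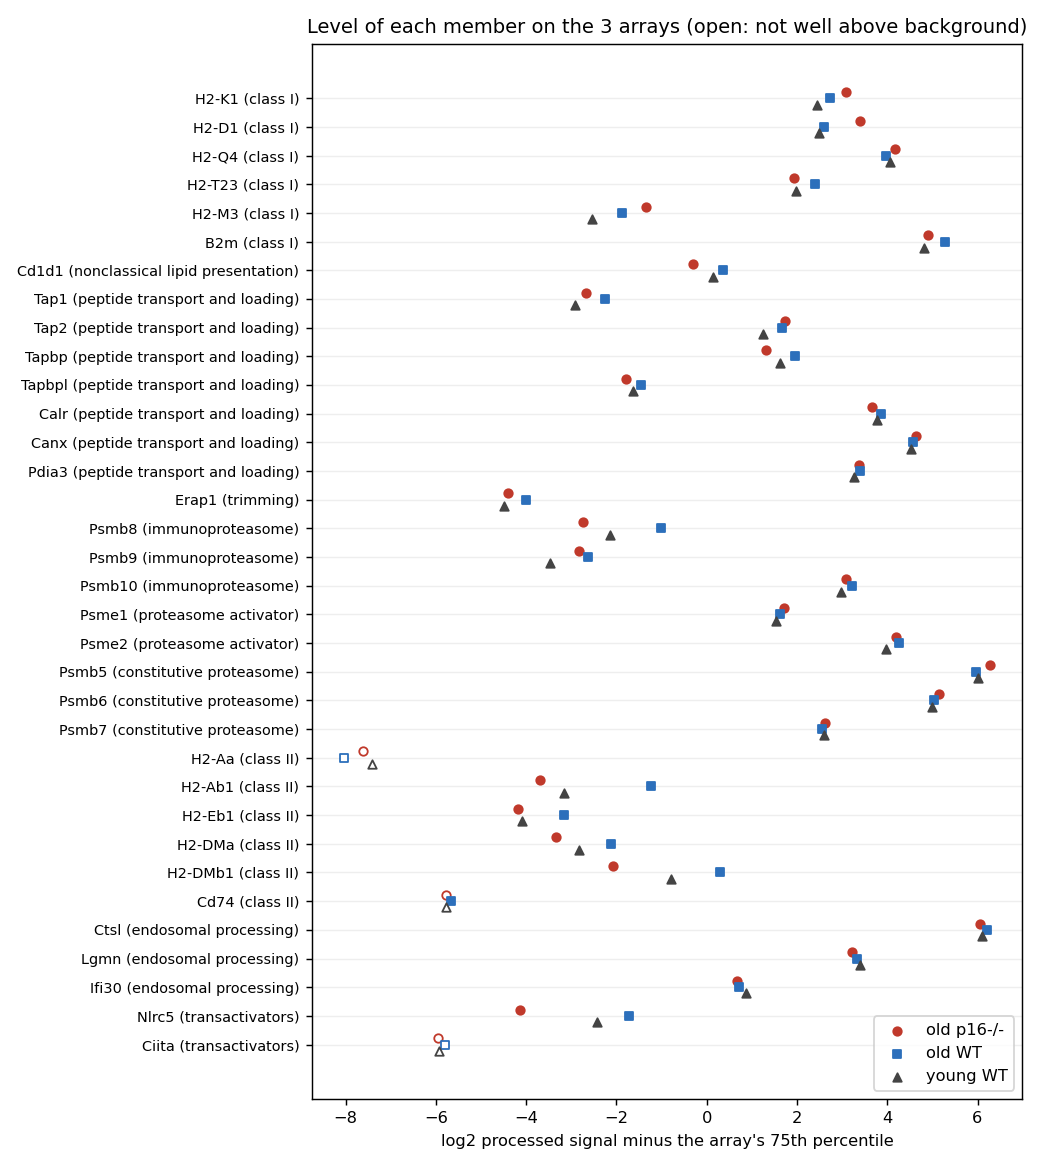
Level of each of the 34 members on the old p16-/-, old WT and young WT arrays, as log2 processed signal minus the 75th percentile of the array (x axis), with members grouped by role (y axis). Filled symbols were well above background and open symbols were not; H2-Ab1, H2-DMb1, Psmb8 and Nlrc5 show the old WT symbol to the right of the other two, and levels of different genes are not comparable because each has its own probe.

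The members that differed most were class II genes, the immunoproteasome subunit Psmb8 and the transactivator Nlrc5, and all of them were higher on old WT than on either other array. Between old p16-/- and old WT, 6 of 32 counted members (18.8%) were at least 2-fold lower on old p16-/-, against 6.51% of all 14681 genes counted, and 0 of 32 were at least 2-fold higher, against 5.97%. These 6 were H2-Ab1, H2-DMb1, Nlrc5, Psmb8, H2-DMa and H2-Eb1, and 2 of them, H2-DMb1 and Psmb8, reached a signal of 1000 on the brighter array. With normexp background correction H2-DMa was at -0.98 and H2-Eb1 at -0.54, short of 2-fold. Between old WT and young WT, 3 of 32 (9.38%) were at least 2-fold higher on old WT, against 2.87% of 14534 genes, and 0 were at least 2-fold lower, against 3.21%. These 3 were H2-Ab1, Psmb8 and H2-DMb1, of which Psmb8 was at 0.99 with normexp. The median log2 ratio over the members was -0.14 for old p16-/- over old WT and 0.26 for old WT over young WT, where all genes had medians of 0.03 and -0.01. Both comparisons use the old WT array, so a value that is high there by error would appear in each.

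Of the roles among the members, 4 classes were compared by their medians, and these differed in sign. For old p16-/- over old WT, the median log2 ratio was 0.27 for class I (6 genes), -1.22 for class II (5 counted), -0.20 for the immunoproteasome (3) and 0.13 for the constitutive proteasome (3). For old WT over young WT, the medians were 0.35, 0.92, 0.82 and -0.03 in the same order. All genes had medians of 0.03 and -0.01 in these comparisons, and the constitutive medians lay near them. Between the old arrays class I had 4 genes above 0 and 2 below, so its median is not a direction shared by the class. The constitutive median between the old arrays shrank to 0.0077 with quantile normalization, and the class I median to 0.18. The class II medians include Cd74, whose bound was under 1-fold and was entered as 0; over the 4 class II genes above background on both arrays the median was -1.79 for old p16-/- over old WT and 1.00 for old WT over young WT. The constitutive subunits were thus the class with the smallest spread, and between the old arrays the immunoproteasome had one subunit, Psmb8, far from the other two.

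**Figure D2:**
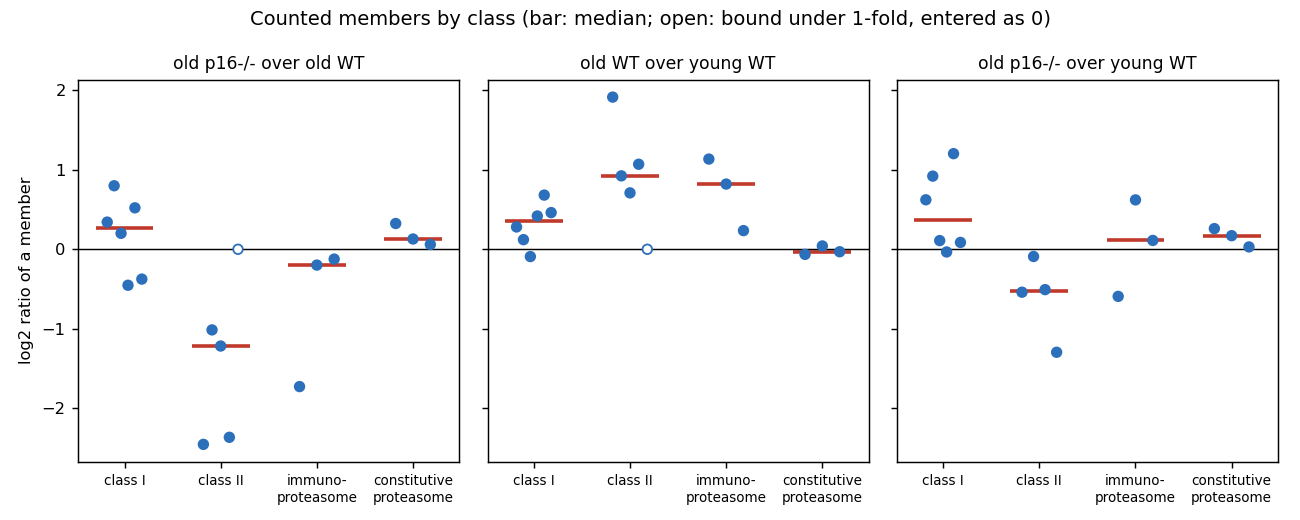
log2 ratio (y axis) of each counted member of the 4 classes (x axis) for old p16-/- over old WT, old WT over young WT and old p16-/- over young WT, 1 array per group. Each point is a gene, the bar is the class median and the open point is Cd74 entered as 0; class II lies lowest in the first panel, with a median of -1.22, and highest in the second, with 0.92.

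**Figure D3:**
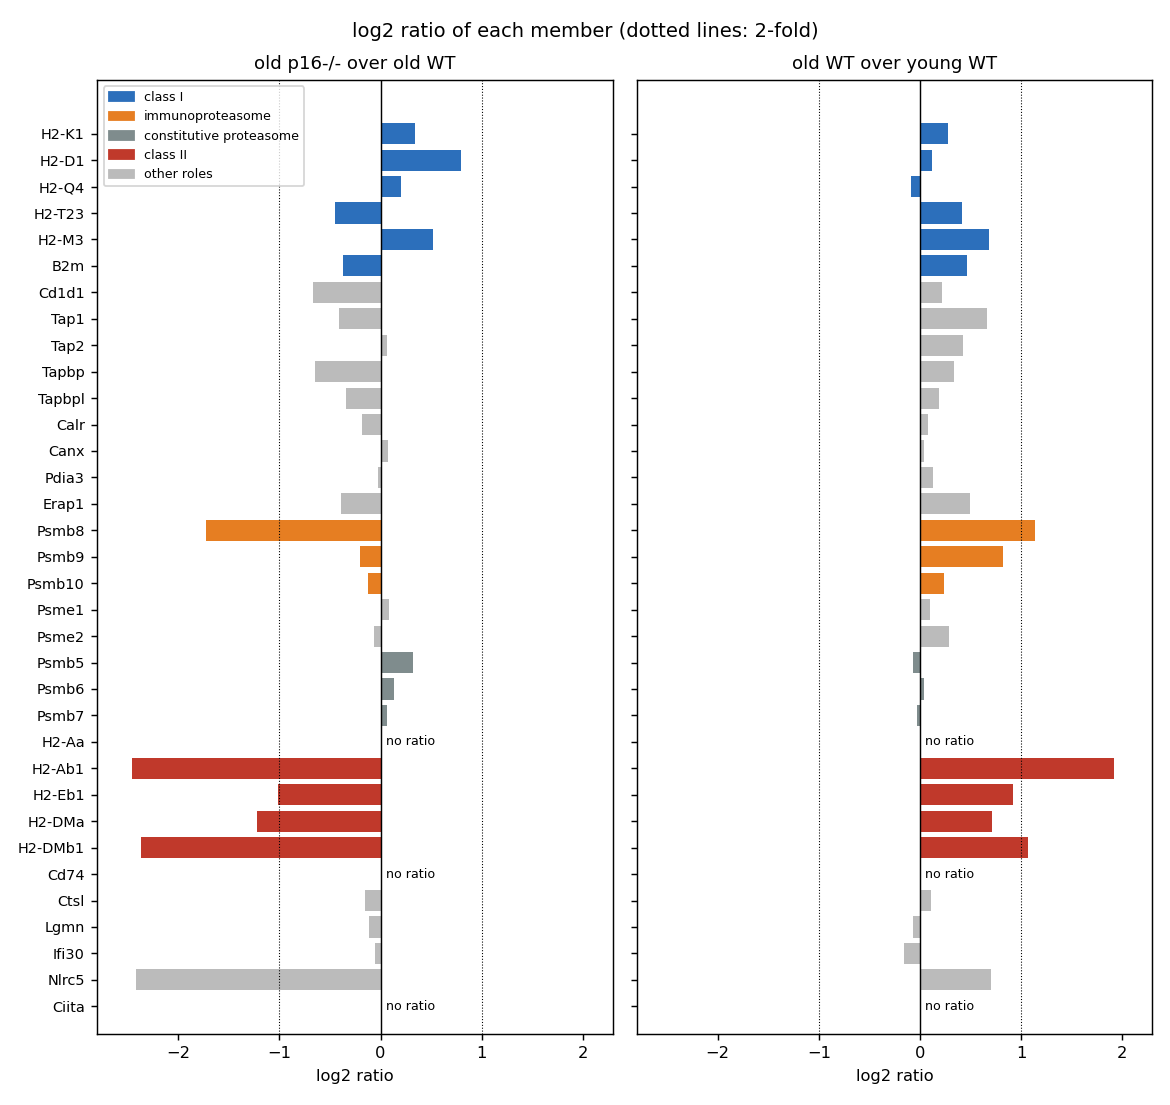
log2 ratio (x axis) of every member (y axis) for old p16-/- over old WT on the left and old WT over young WT on the right, with dotted lines at 2-fold. Bars for H2-Ab1, H2-DMb1, Nlrc5 and Psmb8 reach -2.46, -2.37, -2.42 and -1.73 on the left, and no ratio was given for H2-Aa, Cd74 and Ciita.

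Class II genes showed the widest differences. Where a pair of log2 ratios is given without names, it is for old p16-/- over old WT and then for old WT over young WT. H2-Ab1, the beta chain of the class II molecule I-A, had signals of 174 on old p16-/-, 957 on old WT and 263 on young WT. A second probe gave 167 on old p16-/-, 853 on old WT and 251 on young WT, so both probes read old WT high and the other arrays low. Its log2 ratio was -2.46 for old p16-/- over old WT (-2.34 by the second probe) and 1.92 for old WT over young WT (1.82). H2-DMb1, the beta chain of the DM complex that exchanges peptides on class II molecules, had signals of 531 on old p16-/-, 2755 on old WT and 1359.9 on young WT, at ratios of -2.37 and 1.07. Its partner chain H2-DMa had signals of 223 on old p16-/-, 521 on old WT and 330.1 on young WT, in the same order of arrays, with ratios of -1.22 and 0.71. H2-Eb1, the beta chain of the class II molecule I-E, had 124 on old p16-/-, 252 on old WT and 138 on young WT (-1.02 and 0.92), a range in which single spots err most.

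Not every class II gene could be followed. H2-Aa, the alpha chain that pairs with H2-Ab1, had signals of 11.4 on old p16-/-, 8.63 on old WT and 13.7 on young WT, none of them well above background. Cd74, the invariant chain that guides class II molecules to endosomes, had 40.7 on old p16-/-, 44.5 on old WT and 42.9 on young WT, of which the old WT value was called above background. Each has 1 probe, so whether these probes detect their transcripts was not tested.

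The promoter window of H2-DMb1 is shown because this class II member was at least 2-fold lower on old p16-/- than on either other array. It also carries a match to CCAAT, the letters of the Y box shared by class I and class II promoters. The window covers 250 bases before to 50 after the start, chr17:34152941-34153240 on the plus strand of GRCm38.p6 (RefSeq). The match is in capitals, read as ATTGG since it lies on the other strand, from -61 to -57.
H2-DMb1: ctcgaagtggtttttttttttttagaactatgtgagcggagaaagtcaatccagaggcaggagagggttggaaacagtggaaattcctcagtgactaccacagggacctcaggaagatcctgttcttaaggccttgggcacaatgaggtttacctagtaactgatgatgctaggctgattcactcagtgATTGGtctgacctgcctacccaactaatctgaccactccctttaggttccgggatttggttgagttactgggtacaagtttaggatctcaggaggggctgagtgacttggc

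Macrophage markers, genes of a cell type that makes class II molecules, were in another order across the arrays. Their summed signals over 12 genes were 17863 on old p16-/-, 25478 on old WT and 39670.4 on young WT. Itgam, an integrin chain of myeloid cells, made up most of the sum on old p16-/- and old WT and was nearly level, and without it, a choice made after the values were seen, the sums were 2929 on old p16-/-, 6407 on old WT and 19678 on young WT. Between old WT and young WT, 10 of 12 were at least 2-fold lower on old WT (median log2 ratio -2.15), against 3.21% of all genes. By contrast, the 4 class II genes above background on both arrays had ratios from 0.71 to 1.92. Adgre1, which encodes the macrophage antigen F4/80, had a signal of 155 on old WT and 1153 on young WT, and Ms4a7 had 258 on old WT and 1474 on young WT. Between old p16-/- and old WT, 8 of 12 macrophage markers were at least 2-fold lower on old p16-/-, against 6.51% of all genes. The median over the 12 was -1.96, with 7 bounds, in the same direction as class II. Adgre1, Lyz2, Tyrobp, C1qa, C1qb, C1qc and Ms4a7 were not well above background on old p16-/-, while H2-Ab1, H2-DMa, H2-DMb1 and H2-Eb1 were. Aif1 was the exception among the markers, at 1.32. In these bulk samples, fewer cells of a type and less RNA per cell cannot be told apart, and the part of macrophage transcripts in the class II signals was not tested.

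Dendritic cell markers were mostly dark. Among 7 dendritic cell genes, 2 were above background on old p16-/-, 2 on old WT and 1 on young WT, and the defining genes Itgax, Flt3, Zbtb46 and Xcr1 were on none. Their summed signals were 395 on old p16-/-, 176 on old WT and 226 on young WT, and the sum on old p16-/- came mostly from Cd209a at 215. Of 4 pan-leukocyte genes, 3 were above background on each array, with summed signals of 609.6 on old p16-/-, 540.4 on old WT and 1845 on young WT. Ptprc, the pan-leukocyte antigen CD45, was above background on old p16-/- alone, at 89.9.

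**Figure D4:**
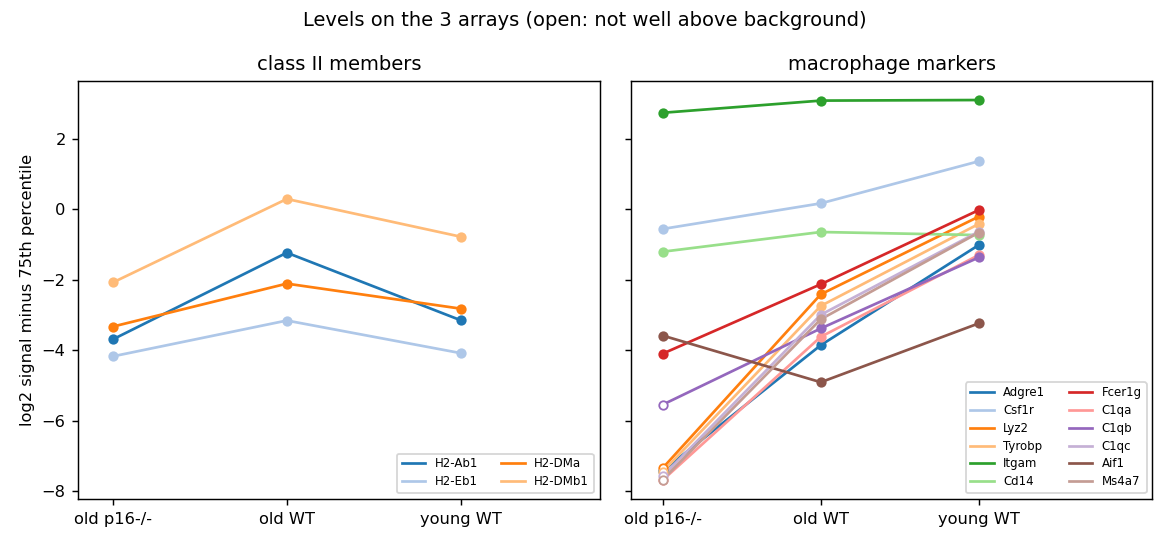
Levels (log2 signal minus the 75th percentile of the array, y axis) of the 4 class II members detected on all arrays (left) and of 12 macrophage markers (right) on the old p16-/-, old WT and young WT arrays (x axis). Lines join the values of 1 gene and open symbols were not well above background; the class II genes peak on old WT, whereas 10 of 12 macrophage markers are at least 2-fold lower on old WT than on young WT.

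Of the transactivators, Nlrc5 was high on old WT. It had signals of 127 on old p16-/-, 685 on old WT and 436 on young WT, with log2 ratios of -2.42 for old p16-/- over old WT and 0.70 for old WT over young WT. Its second probe stayed at background throughout, so these values rest on 1 spot per array. Ciita, the transactivator of class II genes, had signals of 36.4 on old p16-/-, 40.6 on old WT and 38.3 on young WT, with 1 probe and no value above background.

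Other regulators of these genes differed in both directions. Irf9, a DNA-binding subunit of the interferon-activated complex ISGF3, had signals of 3033 on old p16-/-, 8907 on old WT and 5282 on young WT, at ratios of -1.55 and 0.81. Rfxank, a subunit of the RFX complex that binds class I and class II promoters, was higher on old p16-/-, with signals of 718 on old p16-/-, 329.7 on old WT and 389 on young WT (1.13 and -0.19). Irf1 was nearly level, with 4631 on old p16-/-, 4747 on old WT and 4083 on young WT. Irf8, a myeloid transcription factor, was above background on young WT alone, with a signal of 384, with a bound of -3.38 for old WT over young WT.

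Among the immunoproteasome subunits, Psmb8 stood apart between old p16-/- and old WT, whereas between old WT and young WT Psmb8 and Psmb9 were closer to each other than to Psmb10. It had signals of 336 on old p16-/-, 1120.1 on old WT and 528 on young WT, with log2 ratios of -1.73 for old p16-/- over old WT and 1.14 for old WT over young WT. Psmb9 had 313.5 on old p16-/-, 362 on old WT and 212 on young WT, so it was higher on both old arrays than on young WT (-0.20 between the old arrays and 0.82 for old WT over young WT). Psmb10, the third inducible catalytic subunit, had 19198 on old p16-/-, 21027 on old WT and 18519.9 on young WT (-0.12 and 0.23), all within a narrow range.

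Each inducible subunit takes the place of a constitutive one, Psmb8 of Psmb5, Psmb9 of Psmb6 and Psmb10 of Psmb7. Psmb5 had signals of 174352 on old p16-/-, 139979.9 on old WT and 151721 on young WT, at ratios of 0.32 and -0.06, and its second probe gave 0.29 and -0.02. Psmb6 was at 0.13 and 0.04, and Psmb7 at 0.06 and -0.03. The log2 ratio of the inducible subunit minus that of its constitutive counterpart was -2.05 for Psmb8 and Psmb5, -0.33 for Psmb9 and Psmb6 and -0.18 for Psmb10 and Psmb7 between old p16-/- and old WT. Between old WT and young WT the same differences were 1.20, 0.78 and 0.27. Unequal shifts of the subunits were therefore widest for the pair of Psmb8 and Psmb5 in both comparisons. The activator subunits Psme1 and Psme2, which open the proteasome core, were at 0.08 and -0.06 for old p16-/- over old WT and 0.10 and 0.29 for old WT over young WT (0.36 by a second Psme2 probe).

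Of 18 counted genes for other subunits of the proteasome core, its caps and its assembly factors, 0 were 2-fold apart in either comparison. Their median log2 ratio was 0.16 for old p16-/- over old WT, with 16 of 18 above 0. For old WT over young WT it was -0.07, with 14 of 18 below 0. All 18 were brighter than 1000 on every array. Genes whose stronger signal in a comparison reached 1000 had medians of 0.06 and -0.03, in the same directions. The constitutive median between the old arrays fell from 0.13 to 0.0077 with quantile normalization and 0.0071 with cyclic loess. Whether the shifts of these 18 genes depend on the normalization was not tested. Psmb11, the subunit of the thymus proteasome, was at background throughout.

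The window of Psmb8 is shown because this subunit had the widest shift of the proteasome genes. It lies at chr17:34197945-34198244 on the plus strand of GRCm38.p6. The capitals mark the single match to TTCNNNGAA, the gamma-activated site, from -97 to -89.
Psmb8: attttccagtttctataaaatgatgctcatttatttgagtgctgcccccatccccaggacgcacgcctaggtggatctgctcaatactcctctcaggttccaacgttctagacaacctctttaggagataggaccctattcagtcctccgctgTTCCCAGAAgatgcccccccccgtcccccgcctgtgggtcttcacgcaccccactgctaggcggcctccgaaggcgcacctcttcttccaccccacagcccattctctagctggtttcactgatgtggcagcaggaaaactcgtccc

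Among 32851 RefSeq promoter windows of this length, 8.30% held TTCNNNGAA on either strand. Of the 26 members with a window, 2 held it in any of their windows, namely Psmb8 and H2-M3. Tap1 and Psmb9 are transcribed in opposite directions from one stretch, and their windows share 275 of 300 bases. Those neighbours had similar ratios, at -0.42 for Tap1 and -0.20 for Psmb9 for old p16-/- over old WT and 0.66 and 0.82 for old WT over young WT.

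Class I genes were detected on every array and differed by less than 2-fold between old p16-/- and old WT and between old WT and young WT. H2-K1, the classical heavy chain K, was spotted 10 times, with mean signals of 18939.7 ± 268 on old p16-/-, 15023 ± 243 on old WT and 12817 ± 239 on young WT (SD over the 10 spots of an array). The spots of the 3 arrays did not overlap, with a range of 18597 to 19533 on old p16-/-, 14614 to 15476 on old WT and 12347 to 13081 on young WT. This spread is that of the measurement within an array, not of animals. The ratios were 0.34 and 0.28, yet a second probe gave -0.06 for old p16-/- over old WT and 0.33 for old WT over young WT, so the probes differ on the first and not on the second. H2-D1, the other classical heavy chain of the reference strain, had signals of 23718 on old p16-/-, 13698 on old WT and 13054 on young WT (0.80 and 0.12). It was thus high on old p16-/- alone.

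**Figure D5:**
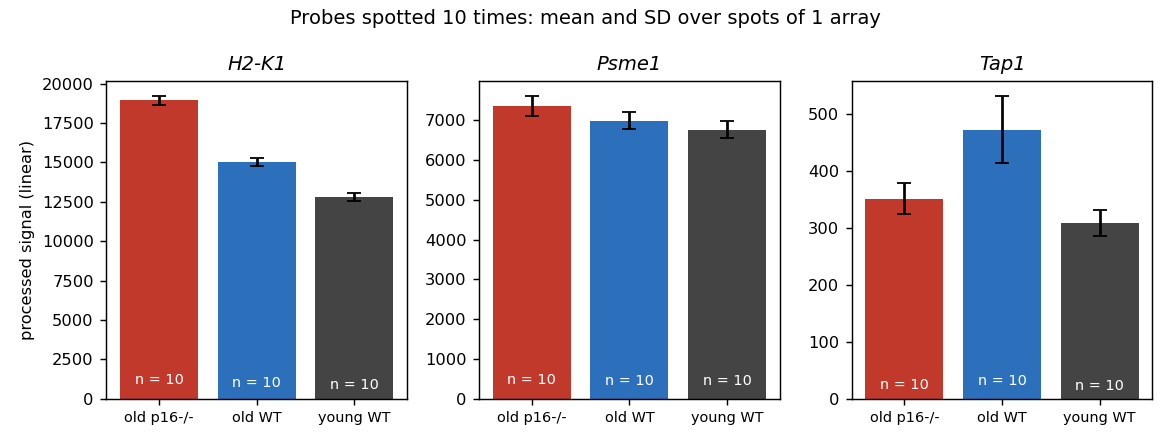
Processed signal (y axis, linear) of the 3 members spotted 10 times, H2-K1, Psme1 and Tap1, on the old p16-/-, old WT and young WT arrays (x axis). Bars are means and error bars the SD over the 10 spots of 1 array, so they show measurement noise; H2-K1 has 18939.7 ± 268 on old p16-/- and 15023 ± 243 on old WT, and Tap1 is highest on old WT.

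The nonclassical heavy chains and the light chain split in direction between the old arrays. H2-M3, which presents formylated bacterial peptides, had 882 on old p16-/-, 618 on old WT and 399 on young WT (0.52 and 0.68). H2-Q4 was nearly level, with 40285 on old p16-/-, 35235 on old WT and 38917 on young WT. H2-T23, which encodes the Qa-1 molecule that presents class I leader peptides to natural killer receptors, had 8631 on old p16-/-, 11878 on old WT and 9209 on young WT (-0.45 and 0.42). B2m was also highest on old WT, with 66889.8 on old p16-/-, 87242 on old WT and 65653 on young WT (-0.38 and 0.46). Cd1d1, which presents lipids to natural killer T cells, was lower on old p16-/- than on old WT by both of its probes, at -0.67 each, and at 0.22 for old WT over young WT. Class I genes are near-identical to one another and vary between mouse strains, the files give no probe sequences, and the donors' strain is not stated in the sources at hand, so which transcripts each H2 probe detects was not tested.

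Windows of 4 class I members are shown because they carry the rarer motifs searched for. All are from GRCm38.p6, with H2-K1 (the first of 2 windows) at chr17:34000284-34000583 on the minus strand, H2-D1 at chr17:35262844-35263143 on the plus strand, B2m at chr2:122147437-122147736 on the plus strand and H2-T23 at chr17:36032652-36032951 on the minus strand. Capitals mark the kappa-B site of enhancer A in H2-K1 and H2-D1. In B2m and H2-T23 they mark the core of the interferon-stimulated response element (GAAA, any 2 bases, GAAA, here on the other strand in H2-T23). In all 4 they mark CCAAT or its reverse ATTGG, the letters of the Y box. Both strands were searched for each motif, and matches of different motifs did not overlap in any member's window.
H2-K1: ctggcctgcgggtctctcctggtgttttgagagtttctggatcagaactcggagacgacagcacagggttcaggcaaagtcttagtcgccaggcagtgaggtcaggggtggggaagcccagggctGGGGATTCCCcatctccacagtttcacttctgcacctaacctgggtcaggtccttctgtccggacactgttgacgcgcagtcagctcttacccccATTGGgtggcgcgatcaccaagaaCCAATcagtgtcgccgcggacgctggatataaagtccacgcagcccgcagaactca
H2-D1: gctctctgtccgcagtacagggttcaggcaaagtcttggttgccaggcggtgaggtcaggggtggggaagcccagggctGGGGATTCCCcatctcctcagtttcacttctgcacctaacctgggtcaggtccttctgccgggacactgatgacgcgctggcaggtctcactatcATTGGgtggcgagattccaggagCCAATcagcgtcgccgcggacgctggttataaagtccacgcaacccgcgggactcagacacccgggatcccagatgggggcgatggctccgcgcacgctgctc
B2m: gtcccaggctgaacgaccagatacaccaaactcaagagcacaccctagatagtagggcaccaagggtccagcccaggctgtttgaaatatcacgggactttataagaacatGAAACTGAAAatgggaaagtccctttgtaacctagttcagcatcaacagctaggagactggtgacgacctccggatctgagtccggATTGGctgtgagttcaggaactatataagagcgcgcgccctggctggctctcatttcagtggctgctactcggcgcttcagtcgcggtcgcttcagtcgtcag
H2-T23: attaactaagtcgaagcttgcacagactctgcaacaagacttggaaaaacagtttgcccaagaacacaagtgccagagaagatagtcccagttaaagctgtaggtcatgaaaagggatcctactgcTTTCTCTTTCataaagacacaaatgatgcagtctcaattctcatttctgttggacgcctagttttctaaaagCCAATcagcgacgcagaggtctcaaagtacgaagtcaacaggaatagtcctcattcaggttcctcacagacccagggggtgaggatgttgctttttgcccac

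The kappa-B site began at -125 in this H2-K1 window and at -171 in H2-D1, and 0.107% of all windows held it. The interferon core ran from -139 to -130 in B2m and from -124 to -115 in H2-T23, and 3.44% of all windows held it. Among the 26 members with a window, 4 held this exact core. Besides B2m and H2-T23 these were Erap1, at -0.40 for old p16-/- over old WT, and Psme1, at 0.08. Variants that depart from these letters were not searched for, so windows without a match, such as those of H2-K1 and H2-D1, may still hold an interferon element. CCAAT, the letters of the Y box, was in a window of 17 of the 26 members. These included 6 of 6 class I genes and 4 of 4 class II genes with a window. The matches of Tap1 and Psmb9 are the same bases of their shared stretch. Which of the matches are Y boxes was not tested. Of all windows, 37.4% held it. The 26 members have 30 windows, and a member was counted if any of its windows matched. Counts of members and percentages of windows are therefore unlike measures, for every motif here. A match is a run of letters and not a shown binding site. Cd1d1, Cd74, Ciita, H2-Ab1, Nlrc5, Psmb7, Tap2 and Tapbpl have no window here.

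Genes for peptide transport and loading had log2 ratios from 0.04 to 0.66 for old WT over young WT, with a median of 0.19. The smallest were Canx at 0.04 and Calr at 0.08. The SD of a log2 ratio, derived from replicate spots of all detected probes, was 0.08. Probes at a signal of at least 1000 varied less, with a median spot SD of 0.045 on old WT and 0.046 on young WT. Over all detected probes it was 0.056 and 0.054. Tap1, a subunit of the peptide transporter, was spotted 10 times and had mean signals of 352 ± 27.2 on old p16-/-, 473 ± 58.8 on old WT and 309 ± 22.3 on young WT (SD over spots). The spots of old WT, from 420.04 to 631, lay above those of young WT, from 273 to 347, and above those of old p16-/-, from 295 to 398. Tap2, the other subunit, had 7474 on old p16-/-, 7199 on old WT and 5565 on young WT, and so was level between the old arrays (0.06) and higher than on young WT (0.42 for old WT). Tapbp, the tapasin that holds class I molecules at the transporter, had 5564 on old p16-/-, 8781 on old WT and 7209 on young WT (-0.65 and 0.34). Its relative Tapbpl, a peptide editor, was at -0.34 and 0.19. Erap1, the peptidase that trims peptides in the endoplasmic reticulum, was dim, with 107 on old p16-/-, 141 on old WT and 104 on young WT.

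The general folding factors among the members stayed close to level. Calr was at -0.19 for old p16-/- over old WT and 0.08 for old WT over young WT, Canx at 0.07 and 0.04 and Pdia3 at -0.03 and 0.13. Of 15 other genes for folding, export and peptide trimming, 0 were 2-fold apart in either comparison, with medians of 0.07 and 0.00.

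The endosomal enzymes among the members were level as well. The protease Ctsl had 149397 on old p16-/-, 166889 on old WT and 159998 on young WT. Lgmn, an endopeptidase, was at -0.11 and -0.07, and Ifi30, a thiol reductase, at -0.06 and -0.15. Outside the members, 2 of 7 counted class II and endosomal genes were at least 2-fold lower on old p16-/- than on old WT, against 6.51% of all genes. Ctss, the protease that degrades the invariant chain, had signals of 1455 on old WT and 6500.02 on young WT and was at background on old p16-/-, with a bound of -4.95. It was at -2.11 for old WT over young WT, in the direction of the macrophage markers and opposite to the class II members. Ctsh had 2441 on old p16-/-, 9303 on old WT and 7063 on young WT (-1.92 and 0.45). H2-Oa, H2-Ob, H2-DMb2 and H2-Eb2 were at background throughout.

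Among other class I genes, 8 of the 12 on the array were counted. Of these 8, 1 was at least 2-fold lower on old p16-/- than on old WT, against 6.51% of all genes. It was H2-T10, with 587 on old p16-/-, 1314 on old WT and 1071 on young WT (-1.15 and 0.35). H2-Q7 went the other way, with 12661 on old p16-/-, 7627 on old WT and 7130.3 on young WT (0.74 and 0.15). Of 6 costimulatory and inhibitory ligands, 3 were counted. Of these 3, 1 was at least 2-fold lower on old p16-/- than on old WT, beside the same 6.51%. It was Cd274, which encodes the inhibitory ligand PD-L1, with 86.4 on old p16-/-, 250.1 on old WT and 235 on young WT (-1.53 and 0.14). Cd80 was at 0.51 and 0.39. On lists this short, a single gene says little about the list.

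Members were chosen by pathway, and 15 of the 34 lie on chromosome 17, which carries the mouse major histocompatibility complex. The H2 genes belong to that complex, so this share came with the choice of members. On that chromosome 5 of 14 counted members were at least 2-fold lower on old p16-/- than on old WT (median -0.43). Elsewhere 1 of 18 was, namely Nlrc5 (median -0.09), beside 6.51% of all genes. Those 5 were H2-Ab1, H2-DMb1, Psmb8, H2-DMa and H2-Eb1. The split by chromosome thus restates the class II and Psmb8 values already given. For old WT over young WT, 3 of 14 were at least 2-fold higher on chromosome 17 (median 0.67) and 0 of 18 elsewhere (median 0.10), where 2.87% of all genes were. Neighbours differed nevertheless. Along the class II region, in the gene order of GRCm38.p6, the log2 ratios of old p16-/- over old WT were -1.22 for H2-DMa, -2.37 for H2-DMb1, -0.20 for Psmb9, -0.42 for Tap1, -1.73 for Psmb8, 0.06 for Tap2, -2.46 for H2-Ab1 and -1.02 for H2-Eb1. The class I genes on either side of that stretch, H2-K1 and H2-D1, were at 0.34 and 0.80.

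Between old p16-/- and young WT few members were 2-fold apart. Of 31 counted members, 2 (6.45%) were at least 2-fold lower on old p16-/-, against 6.94% of 14266 genes, and 1 (3.23%) was at least 2-fold higher, against 6.36%, shares near or below those of all genes. The lower ones were Nlrc5 at -1.72 and H2-DMb1 at -1.30, and the higher one was H2-M3 at 1.20. H2-Ab1, at -0.54, was within 2-fold, as were H2-DMa at -0.51, Psmb8 at -0.59 and H2-Eb1 at -0.09. H2-D1 was at 0.92, H2-K1 at 0.62 (0.27 by its second probe) and Psmb9 at 0.62. The class medians were 0.37 for class I, -0.52 for class II, 0.11 for the immunoproteasome and 0.17 for the constitutive proteasome, beside 0.03 over all genes.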

How the data were processed

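Per the file headers, the deposited files are the output of Agilent Feature Extraction 11.5.1.1 for arrays of 1 slide read in 1 scan, with a linear intensity per spot. RNA was labelled with Cy3, per the labels. The value table deposited for the series repeats the processed signal on a linear, uncentred scale, within a relative tolerance of 0.0001 for 38973 (old p16-/-), 38984 (old WT) and 38983 (young WT) probes spotted once. Its column medians were 132, 135 and 137.

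Control spots (1377) and outlier spots (267, 246 and 246 in that order of arrays) were dropped, and no spot was saturated. Spots of one probe were averaged as log2 signals, from which the array's 75th percentile was subtracted. Probe accessions were matched without versions to RefSeq genes of GRCm38.p6, which named 27508 of 39429 probes. Of 20886 named genes, 61 had no probe left on all 3 arrays. The array was designed on mm9, and no probe coordinates are given; promoter windows and gene order are those of GRCm38.p6. All 34 members matched, 28 by 1 probe and 6 by 2. A gene entered a comparison if its brightest probe was detected on either array. Where just 1 array detected it, the ratio is a bound, computed against the lowest detected level on the other array or the dim probe's measured level, whichever is larger, and entered as 0 if under 1-fold. Members and lists were chosen with earlier results of these data known. All 34 members are named, and other lists are given as counts with values for genes at least 2-fold apart, plus H2-Q7, Irf1 and Cd80, which were chosen after their values were seen. Marker lists for T cells (2 of 4 detected on each array), endothelial cells (2 of 3) and keratinocytes had 0 genes 2-fold apart. Some values of the regulator and marker lists are not reported here. The computation was tested on simulated data. Alternatives were normexp on the median signals, quantile and cyclic loess normalization, the mean over probes, 3 filters and the value table. Python 3.11.15, R 4.3.3 and limma 3.58.1 were used. Precision is limited by having 3 arrays.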

Additional observations from a re-analysis of the deposited data

How the results depend on the processing

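Under 8 alternatives, 0 single-member ratios of at least 2-fold reversed, and 84 of 89 recomputed ones were still at least 2-fold. The other 5 were Psmb8 for old WT over young WT (0.99) and H2-DMa for old p16-/- over old WT (-0.98) with normexp, which here used spot and background medians, and H2-Eb1 for old p16-/- over old WT (-0.54 with normexp, -0.98 with quantile normalization, -0.94 with cyclic loess). Of 144 recomputed counts and class medians, 120 were within 1.5 times (counts) or within 0.08 log2 units (medians). That 0.08 is the SD of a log2 ratio derived from replicate spots. In the list that follows, a is old p16-/- over old WT, b is old WT over young WT and c is old p16-/- over young WT. With normexp, the class II medians were -0.98 (a), 0.55 (b) and -0.42 (c) and the immunoproteasome median 0.69 (b). Class I and constitutive proteasome medians (a) were 0.18 and 0.0077 with quantile normalization and 0.17 and 0.0071 with cyclic loess, which put class II at 0.83 (b). The mean over probes put class I at 0.17 (a) and 0.28 (c). Requiring both arrays above background put class II at -1.79 (a), and no filter put it at -1.12 (a), 0.82 (b) and -0.36 (c). When the brighter array had to reach a signal of 1000, class II held 1 gene, H2-DMb1, at -2.37 (a), 1.07 (b) and -1.30 (c), the immunoproteasome 2 genes, at -0.93 (a) and 0.69 (b), and class I was at 0.11 (c). That filter left 2 of 22 members at least 2-fold lower (a), beside 368 of 8835 genes, since it removes the dim members. Of 21 members (c), it left 0 higher and 1 lower, beside 303 and 371 of 8871 genes. Normexp kept 14681 genes counted (a), 14534 (b) and 14266 (c), as in the main analysis. It lowered the count of those at least 2-fold apart to 555 higher and 669 lower (a), and 249 and 267 (b). The main counts were 877 and 955 (a), and 417 and 467 (b). Requiring both arrays gave 554 and 651 of 13272 (a), 229 and 222 of 13204 (b) and 559 and 640 of 12913 (c, against 908 and 990). No filter gave 895 and 795 (b) and 1444 and 1502 (c), with 1317 and 1596 (a), each of 20825 genes. The signal filter gave 239 and 368 of 8835 (a), 101 and 50 of 8717 (b) and 303 and 371 of 8871 (c). Normexp gave 591 and 723 (c). No paired analysis was possible because each group has 1 array and no test was run.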
